A study of Bos taurus with 14 samples.

Results

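The subject here is parity in mammary glands of dairy cows fed linseed: 4 cows of high parity were set against 3 cows of low parity, all on the Omega diet. These 7 cows were chosen by their diet label out of 14 Holstein-Friesian cows in all, and split by their parity label, with 3 or more as high and 1 or 2 as low. High parity held the Omega cows of blocks 303, 305 and 308, each with parity label 4, and of block 307 with label 3. Low parity held the Omega cows of blocks 302 and 306, each with label 1, and of block 304 with label 2. The 7 Control cows, 4 of high and 3 of low parity in the same 7 blocks, received a concentrate without linseed and are used only for comparison. Their parity labels were 6, 3, 4 and 6 in blocks 303, 305, 307 and 308, against 1, 2 and 1 in blocks 302, 304 and 306. The Omega concentrate, which contained linseed, a seed rich in alpha-linolenic acid, was added to a basal diet, beginning 3 weeks ahead of the due date and ending 6 weeks into lactation. Mammary RNA of each cow was hybridised to 1 Affymetrix bovine array, at a day of lactation that the labels do not state. In the stated design the least experienced 6 cows are called second parity, and 6 cows carry a label of 1 or 2, so the labels may not count lactations in the way the design does.

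Parity counts how often a cow has calved. The mammary gland passes through growth, milk secretion and involution with each pregnancy and lactation, and cows in their early lactations are still growing in body and udder and give less milk than older cows. Milk fat is made in the secretory cells from fatty acids built in the gland and from fatty acids taken up from blood, and linseed raises the supply of polyunsaturated fatty acids, although much of it is hydrogenated in the rumen.

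Previous milk yield differed along with parity, so neither the trait records nor the arrays can separate the effect of parity from that of yield, age or number of earlier lactations. Milk over 100 days of the earlier lactation was recorded as 4812, 4696, 4420 and 3659 for the high parity cows of blocks 303, 305, 307 and 308, against 2771, 3902 and 2110 for the low parity cows of blocks 302, 304 and 306, in a unit that the labels do not give. The classes overlapped, since the cow of block 304 was recorded above that of block 308, and the mean was 4397 ± 519 in high parity cows and 2928 ± 906 in low parity cows (SD, n = 4 and n = 3; exact two-sided permutation p = 0.114, adjusted over 7 traits p = 0.2). Previous milk fat was 182, 204, 201 and 170 in the high parity cows, against 99, 136 and 86 in the low parity cows, with no overlap. Previous milk protein did not overlap either, at 125 to 156 in high parity cows and 73 to 120 in low parity cows. For fat and for protein the exact two-sided permutation p was 0.0571, the smallest that 35 assignments of the 7 cows allow, and 0.2 after adjustment over the 7 traits. Fat as a percentage of milk averaged 4.33 ± 0.39 in high parity cows and 3.71 ± 0.32 in low parity cows and the classes overlapped (SD, n = 4 and n = 3; exact permutation p = 0.114). Protein percentage, expected calving day and array number had exact permutation p of 0.914, 0.629 and 0.971.

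**Figure D1:**
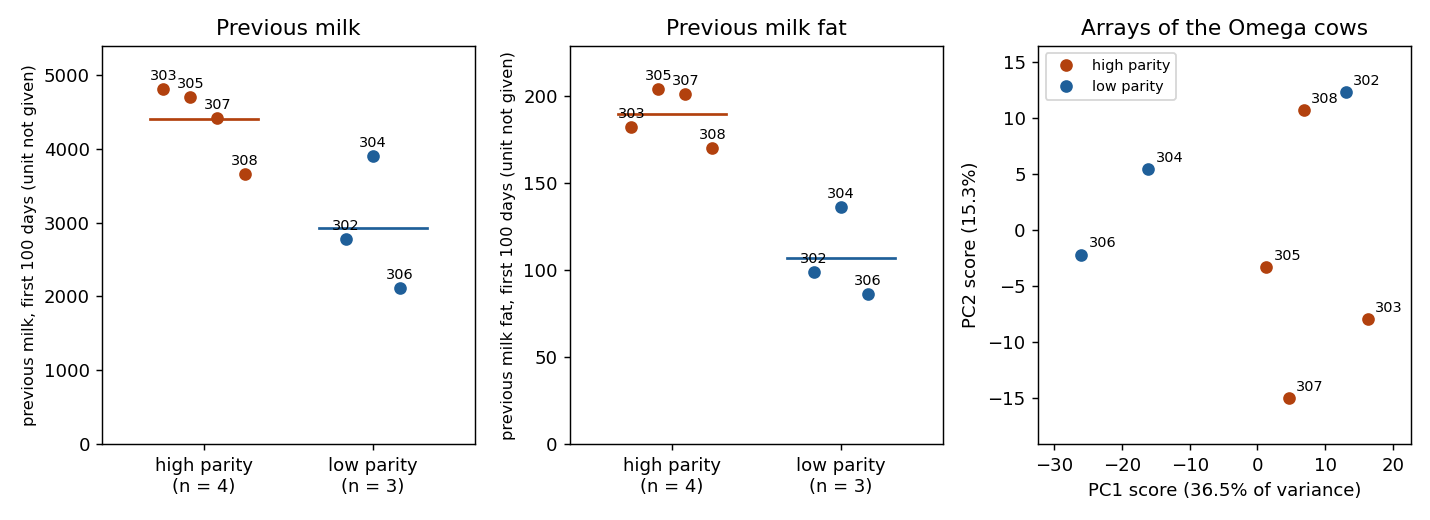
Previous milk and previous milk fat over the first 100 days (left and middle, linear axes from 0, unit not given; points are single cows marked by block, lines are class means) and the first components of the 7 Omega arrays (right; scores in log2 units). Previous fat separates the 4 high parity from the 3 low parity cows, previous milk does not, and on PC1 the low parity cow of block 302 lies at 13.08, among the high parity cows at 1.31 to 16.28.

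Milk protein transcripts were bright on all 7 arrays. Here and below, values by cow are log2 intensities in the order of blocks 303, 305, 307 and 308 for high parity and 302, 304 and 306 for low parity. LALBA, which encodes the lactose synthase cofactor alpha-lactalbumin, lay at 14.50, 14.60, 14.52 and 14.58 in the high parity cows, against 14.56, 14.52 and 14.52 in the low parity cows. The kappa-casein transcript CSN3 lay between 14.64 and 14.73 in high parity cows and between 14.69 and 14.71 in low parity cows, close to the top of the scale at 14.81, where differences can be compressed. Markers of blood cells and platelets were dim, with 0 of 6 measured genes above the 30th percentile of array means (a log2 value of 4.60), as were markers of skeletal muscle, with 3 of 12.

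The low parity cows differed more among themselves than the high parity cows did. Correlations between arrays were 0.987 to 0.989 for the 6 pairs of high parity cows and 0.977 to 0.987 for the 3 pairs of low parity cows, and the SD within class exceeded 0.5 on the log2 scale for 194 probe sets in high parity cows and for 508 in low parity cows. On the first principal component of the 7 arrays, which held 36.5% of the variance, the high parity cows had scores of 16.28, 1.31, 4.67 and 6.84, against 13.08, -16.14 and -26.04 for the low parity cows of blocks 302, 304 and 306. The low parity class therefore holds 2 cows at the far end and 1 cow, that of block 302, among the high parity cows. Hybridisation spike-in controls averaged 9.63 to 10.23 in high parity cows and 9.40 to 10.42 in low parity cows, with the cows of blocks 307 and 304 lowest in their classes. The 3' minus 5' difference of the GAPDH control probe sets was 0.82 to 1.08 in high parity cows and 0.85 to 0.95 in low parity cows. For the actin control it was 2.09 to 2.42 in high parity cows, against 2.69, 2.31 and 2.28 in the low parity cows. The cow of block 302 was thus the highest of all 7 for actin.

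Across 10740 probe sets that were not array controls, no transcript passed an adjusted p of 0.05 between high and low parity Omega cows in limma (smallest adjusted p = 0.665), where differences are log2 intensities of high minus low parity. An unadjusted p under 0.05 was reached by 776 probe sets, or 7.23%, of which 324 (3.02%) were higher and 452 (4.21%) lower in high parity cows. The exact permutation test gave 0 probe sets at that level, since it cannot fall below 0.0571 with 4 against 3 cows. All high parity cows lay above all low parity cows for 383 probe sets (3.57%) and below them for 414 (3.85%). The median difference was -0.0055, 48.5% of probe sets were higher in high parity cows, and 34 differed by more than 1 on the log2 scale. The 95% interval of a difference had a median half-width of 0.29, a fold of 1.23, and the width differed between probe sets with the spread between cows. Labels name separate cows, so this spread is one between animals.

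The genes named next are 21 of 24, and none of the 24 passed the adjusted test. The 24 are the 12 in each direction with the smallest unadjusted p among probe sets above the 30th percentile, so their values describe the extremes of the comparison. In all 24 the classes did not overlap, which the choice by small p favours.

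One of the transcripts higher in high parity cows was PTGR1, which encodes prostaglandin reductase 1, an enzyme that inactivates leukotriene B4 and reduces oxidised prostaglandins. Its values were 4.64, 5.78, 6.50 and 5.56 in the high parity cows, against 3.98, 3.42 and 3.73 in the low parity cows, a difference of 1.91. The low parity mean of 3.71 lay under the 30th percentile of 4.60, so PTGR1 entered this choice only through the high parity cows, and the size of its difference is uncertain. The same held for MARCHF3, whose mean was 5.28 in high parity cows and 4.57 in low parity cows. PIM1, a kinase induced by cytokine and prolactin signalling through STAT5, measured 7.97, 8.25, 8.10 and 8.59 in the high parity cows, against 7.76, 6.12 and 6.60 in the low parity cows, a difference of 1.40 (95% interval 0.65 to 2.16). The cow of block 302 came within 0.21 of the lowest high parity cow, while those of blocks 304 and 306 were well below it.

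HNRNPLL, an RNA-binding regulator of splicing, had the smallest p in this direction, with 9.91, 10.07, 10.16 and 9.97 in the high parity cows, against 9.58, 9.35 and 9.25 in the low parity cows (difference 0.63, limma unadjusted p = 0.000393). The membrane protein gene CMTM7 lay at 8.31, 7.97, 7.93 and 8.10 in the high parity cows, against 7.58, 7.45 and 7.50 in the low parity cows. Its difference was 0.57, and within each class the cows lay close together. GPT, alanine aminotransferase, which links amino acids to pyruvate, measured 5.79, 5.67, 6.08 and 5.92 in the high parity cows, against 5.09, 5.45 and 5.27 in the low parity cows. The difference of 0.60 for GPT was larger than the spread within either class. COL6A2, a chain of collagen VI, showed the tightest high parity class of the 12, at 5.49, 5.46, 5.51 and 5.54 in the high parity cows, against 5.13, 5.17 and 5.07 in the low parity cows, with a difference of 0.37. POFUT1, which adds O-fucose to Notch receptors, SSH3, a cofilin phosphatase, and the ubiquitin ligases MARCHF3 and RNF5 had differences of 0.54, 0.44, 0.72 and 0.51. With previous milk as a covariate that of MARCHF3 was 0.20.

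Among transcripts lower in high parity cows, LTA4H, the hydrolase that makes leukotriene B4, had the largest difference of the 12. It measured 6.17, 6.55, 6.78 and 6.50 in the high parity cows, against 7.52, 8.20 and 9.27 in the low parity cows, a difference of -1.83 (95% interval -2.60 to -1.05), so that high parity cows had on average 3.55-fold less signal. The low parity cows were spread widely, with block 306 highest and block 302 nearest to the high parity cows. CTSK, the collagen-degrading protease cathepsin K, measured 7.77, 7.98, 7.77 and 7.71 in the high parity cows, against 8.20, 8.90 and 8.72 in the low parity cows, a difference of -0.80 (95% interval -1.17 to -0.43). Again the cow of block 302 was the low parity cow nearest to the high parity class.

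PSMD5, a chaperone of proteasome assembly, had the smallest p of all named genes. Its values were 7.92, 7.88, 7.91 and 7.89 in the high parity cows, against 8.31, 8.60 and 8.70 in the low parity cows (difference -0.64, limma unadjusted p = 0.000315), with the 4 high parity cows nearly equal. A further proteasome assembly chaperone, PSMG3, averaged 6.21 ± 0.02 in high parity cows and 6.60 ± 0.11 in low parity cows (SD, n = 4 and n = 3). DPH2, which takes part in making diphthamide, a modified residue of a translation elongation factor, measured 4.98, 5.03, 4.84 and 4.94 in the high parity cows, against 5.36, 5.45 and 5.42 in the low parity cows. PPP1CC, a catalytic subunit of protein phosphatase PP1, measured 5.01, 5.12, 5.28 and 5.20 in the high parity cows, against 5.50, 6.11 and 6.09 in the low parity cows, with blocks 304 and 306 about equal and block 302 lower. The acyl-CoA-binding protein gene ACBD6 was at 7.15, 7.11, 6.93 and 6.91 in the high parity cows, against 7.59, 7.38 and 7.63 in the low parity cows. BREH1, the bovine retinyl ester hydrolase, was at 5.03, 5.49, 5.39 and 5.71 in the high parity cows, against 6.25, 6.07 and 6.03 in the low parity cows. Differences were -0.46 for DPH2, -0.75 for PPP1CC, -0.51 for ACBD6 and -0.71 for BREH1. The transcription factor ETS2, the helicase DHX32 and the F-box protein FBXO25 had differences of -0.53, -0.53 and -0.41.

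**Figure D2:**
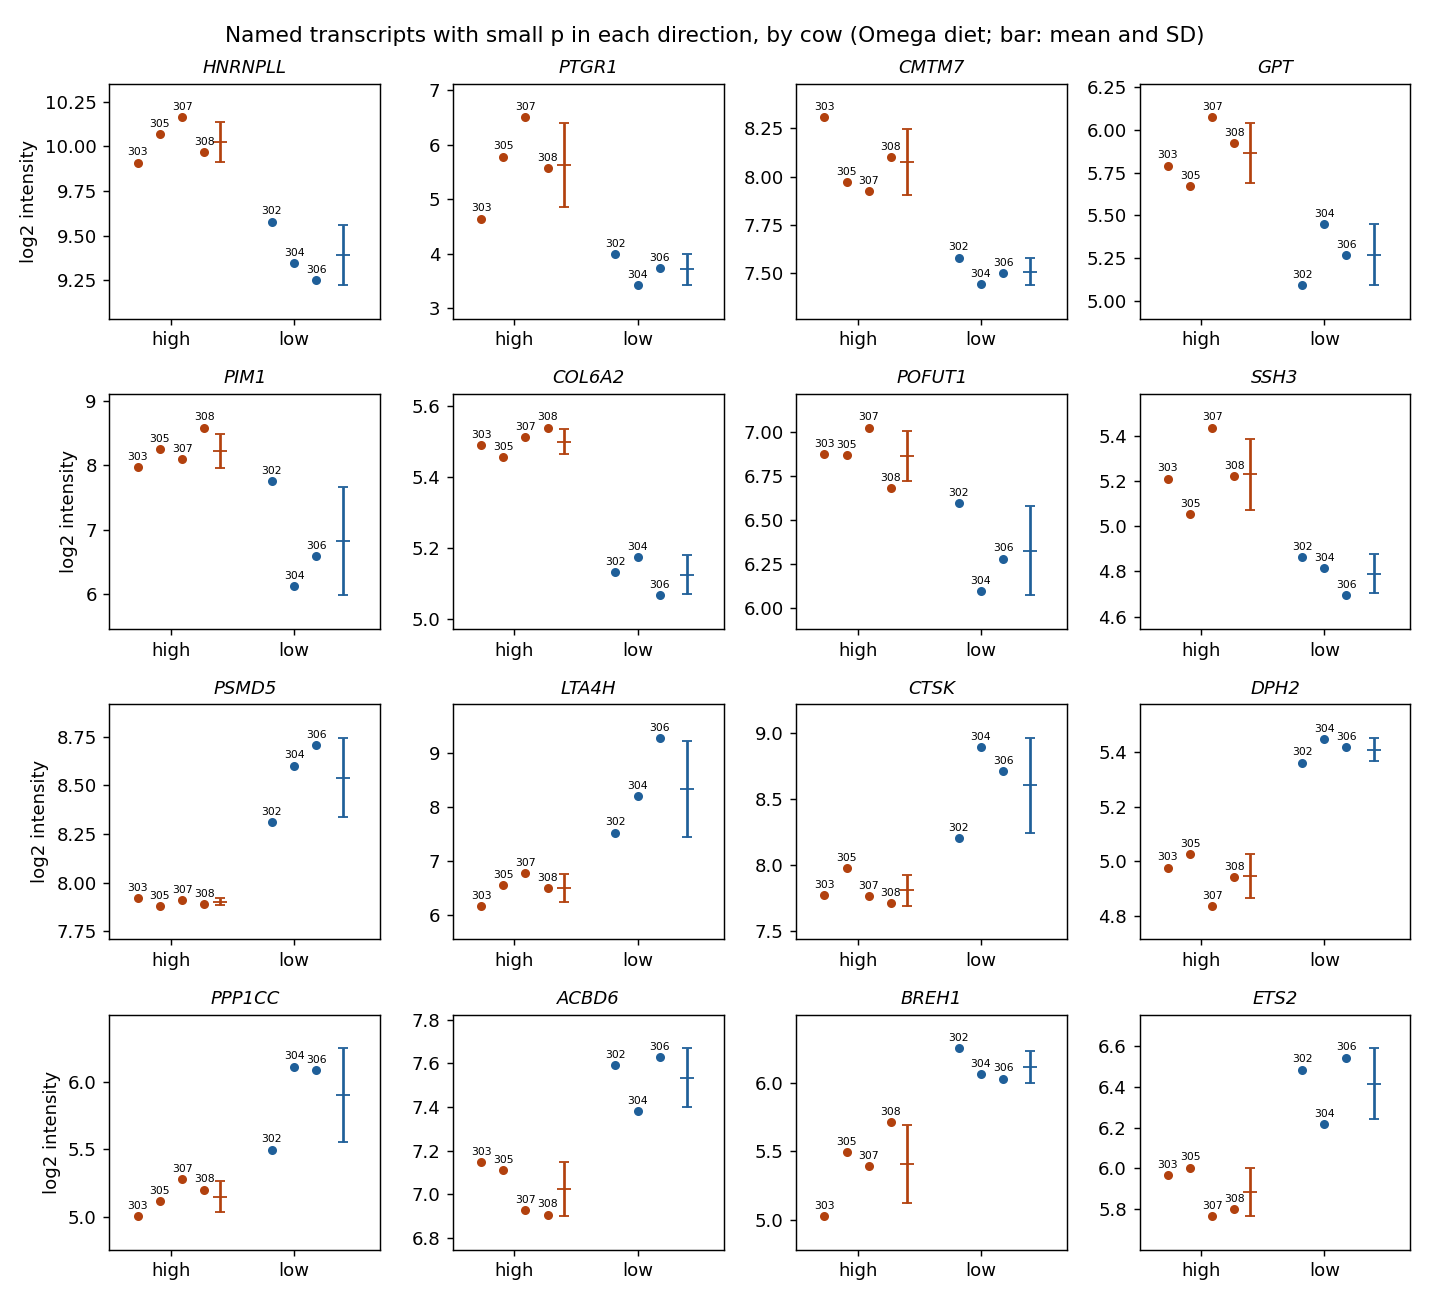
Log2 intensity (vertical axes, not starting at 0) of 8 named genes that were higher (upper panels) and 8 that were lower (lower panels) in high parity cows. Points are single Omega cows marked by block, with high parity left of low parity and the mean and SD beside them; no panel shows overlap, and in LTA4H, CTSK, PPP1CC and PIM1 block 302 is the low parity cow nearest to the high parity cows.

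Gene lists for mammary functions and cell types held 700 measured genes, of which 48, or 6.86%, had an unadjusted p under 0.05, set against 7.23% of all probe sets. No list member passed the adjusted test. List medians ran from -0.26 to 0.17, with 22 of 41 above 0. With previous milk, which differed along with parity, as a covariate, 13 of the 41 medians had the other sign. In whole tissue, fewer cells of a type and less RNA per cell cannot be told apart.

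Of milk protein transcripts, 7 of the 11 measured members were higher in high parity cows, with a median difference of 0.017. CSN1S1, the alpha-S1-casein gene, measured 13.70, 13.84, 13.78 and 13.73 in the high parity cows, against 13.70, 13.57 and 13.70 in the low parity cows, and this narrow gap was the single case without overlap in the list. CSN1S2, CSN3, LALBA and the beta-lactoglobulin gene PAEP differed by 0.012, -0.02, 0.017 and -0.013, each with a 95% interval that included 0. LTF, which encodes the iron-binding defence protein lactoferrin, ranged far more, with 8.69, 11.16, 10.15 and 12.11 in the high parity cows, against 10.41, 11.90 and 12.90 in the low parity cows. Its difference of -1.21 had an interval of -2.98 to 0.56, and with previous milk as a covariate it was 0.19.

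Transcripts for taking up fatty acids from blood stood at the upper end of the list medians: 12 of the 14 measured members were higher in high parity cows, with a median difference of 0.16. The mean over the list, with each gene centred on its mean over the 7 Omega arrays, was 0.18, 0.08, 0.08 and 0.06 in the high parity cows, against -0.06, -0.18 and -0.16 in the low parity cows, so the classes did not overlap. Such list means did not overlap in 3 of the 41 lists, the others being basement membrane and integrins and B and plasma cell markers. Of all single probe sets, 3.57% did not overlap in the higher and 3.85% in the lower direction. LPL, lipoprotein lipase, which frees fatty acids from blood lipoproteins, measured 12.95, 13.04, 12.76 and 12.79 in the high parity cows, against 13.30, 11.56 and 11.49 in the low parity cows. Its difference of 0.77 (95% interval -0.094 to 1.63) came from the cows of blocks 304 and 306 alone, since block 302 was the highest of all 7 cows. VLDLR, a receptor for triglyceride-rich lipoproteins, measured 7.04, 7.21, 6.82 and 6.90 in the high parity cows, against 6.84, 5.98 and 6.08 in the low parity cows (difference 0.70, limma unadjusted p = 0.00755). LMF1, needed for the maturation of LPL, differed by 0.44 (unadjusted p = 0.0433). The fatty acid translocase CD36 and the binding protein FABP3 differed by 0.26 and 0.11, and with previous milk as a covariate CD36 was at -0.012.

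Fatty acid synthesis and milk fat assembly had smaller median differences. In de novo synthesis 5 of the 8 measured members were higher in high parity cows, with a median difference of 0.05. ACACA, the acetyl-CoA carboxylase that commits carbon to fatty acids, measured 6.44, 6.46, 6.39 and 6.24 in the high parity cows, against 6.33, 6.27 and 5.93 in the low parity cows. The desaturase SCD, which makes oleic acid, measured 13.62, 13.53, 13.83 and 13.54 in the high parity cows, against 13.72, 13.37 and 13.52 in the low parity cows. The cow of block 302 lay within the high parity range, and those of blocks 304 and 306 lay below it, block 306 only narrowly. In the desaturation and elongation list 7 of the 12 measured members were higher in high parity cows, with a median difference of 0.073, and TECR, the last reductase of elongation, was higher by 0.36 (unadjusted p = 0.00665) without overlap. ELOVL5 and FADS2, an elongase and a desaturase that act on linseed's fatty acids, differed by -0.44 and 0.31. For triacylglycerol synthesis and the milk fat globule 12 of the 22 measured members were higher in high parity cows, with a median difference of 0.065. GPAM, the first acyltransferase of the pathway, differed by 0.53 (unadjusted p = 0.0286), and MUC1, a mucin of the globule membrane, by 0.27 (unadjusted p = 0.043). The globule proteins BTN1A1, XDH, PLIN2 and MFGE8 differed by 0.069, -0.034, 0.18 and 0.61, and with previous milk as a covariate MFGE8 was at 0.059.

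In cholesterol synthesis 8 of the 16 measured members were higher in high parity cows, with a median difference of -0.028, and GGPS1, which makes geranylgeranyl diphosphate, was lower, at -0.34 (unadjusted p = 0.00779). Among lipid regulators 7 of the 11 measured members were higher in high parity cows, with a median difference of 0.028. MBTPS1, a protease that activates SREBP, differed by -0.25 (unadjusted p = 0.0292), while SREBF1, INSIG1 and PPARG differed by -0.17, 0.17 and -0.044 with intervals that included 0. In fatty acid oxidation 8 of the 22 measured members were higher in high parity cows, with a median difference of -0.062. The trifunctional protein subunits HADHB and HADHA both lay lower in every high parity cow than in any low parity cow, with differences of -0.44 (unadjusted p = 0.0108) and -0.22 (unadjusted p = 0.072). Of respiratory chain transcripts, 22 of the 62 measured members were higher in high parity cows, with a median difference of -0.039. Within them NDUFA8 differed by -0.36 and NDUFAB1 by 0.40, 2 subunits of complex I in opposite directions. Of ribosomal protein transcripts, 6 of the 39 measured members were higher in high parity cows, with a median difference of -0.048 and the member with the smallest p, RPL18, at -0.22. The mean of the centred ribosomal list was -0.01, -0.06, 0.05 and -0.09 in the high parity cows, against -0.21, 0.08 and 0.24 in the low parity cows. The classes overlapped, and the cow of block 302 was the lowest of all 7. With previous milk as a covariate the medians for cholesterol synthesis, fatty acid oxidation and the respiratory chain turned sign, to 0.16, 0.042 and 0.12.

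Glucose and amino acid supply showed a few single differences. In the lactose and glucose transport list 9 of the 16 measured members were higher in high parity cows, with a median difference of 0.013. The sodium-glucose transporter SLC5A1 and the phosphoglucomutase PGM1 were lower in high parity cows without overlap, at -0.29 (unadjusted p = 0.0167) and -0.23 (unadjusted p = 0.0361), and the glucose transporter SLC2A1 differed by 0.30. In glycolysis and the pentose phosphate pathway 5 of the 17 measured members were higher in high parity cows, with a median difference of -0.049, and of 0.096 with previous milk as a covariate. In amino acid transport 6 of the 12 measured members were higher in high parity cows, with a median difference of 0.022. SLC7A5, which carries large neutral amino acids, measured 10.07, 9.85, 9.50 and 9.85 in the high parity cows, against 10.25, 8.69 and 7.71 in the low parity cows, with block 302 again highest. SLC40A1, the iron exporter ferroportin, was lower, at -0.44 (unadjusted p = 0.0076) without overlap. PTHLH, the parathyroid hormone-related peptide that mobilises calcium, differed by 0.67 (unadjusted p = 0.0647), with an interval of -0.050 to 1.38. It measured 10.82, 10.79, 10.60 and 10.73 in the high parity cows, against 11.04, 9.63 and 9.53 in the low parity cows. The classes overlapped for PTHLH, and the cow of block 302 was the highest of all. Both genes belong to the mineral transport list, whose median was 0.14 over 15 genes, and -0.028 with previous milk as a covariate.

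Hormone signalling lists had medians near or below 0. In the prolactin, growth hormone and JAK-STAT list 6 of the 11 measured members were higher in high parity cows, with a median difference of 0.0015. NFIB, a nuclear factor that acts with STAT5 on milk genes, was higher by 0.40 (unadjusted p = 0.00694) without overlap. CISH, a STAT5 target that restrains the same receptors, measured 7.72, 7.88, 7.74 and 7.94 in the high parity cows, against 8.25, 6.73 and 6.55 in the low parity cows, so that blocks 304 and 306 lay below all others and block 302 above. The receptors PRLR and GHR differed by -0.13 and 0.031. In the insulin-like growth factor list 6 of the 15 measured members were higher in high parity cows, with a median difference of -0.13. IGF1 was higher by 0.29 (unadjusted p = 0.0431), whereas its binding protein gene IGFBP4 and the insulin signalling subunit gene PIK3R1 were lower, at -0.33 (unadjusted p = 0.0219) and -0.39 (unadjusted p = 0.041), and the binding protein gene IGFBP5 differed by 0.19. With previous milk as a covariate PIK3R1 and the list median were both at -0.0087. The estrogen receptor ESR1 was dim and differed by -0.11, in a list of steroid and thyroid receptors with a median of 0.049 over 5 genes. Growth factors and their receptors had a median of -0.0087 over 15 genes.

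Epithelial and matrix transcripts had the lowest list medians. Of luminal epithelial markers, 1 of the 9 measured members was higher in high parity cows, with a median difference of -0.25, and of basal and myoepithelial markers, 2 of the 9 measured members were higher in high parity cows, with a median difference of -0.22. The centred luminal list mean was -0.34 to 0.02 in high parity cows, against -0.16, 0.18 and 0.43 in the low parity cows, with block 302 inside the high parity range. For basal markers the low parity cows, at -0.18, 0.21 and 0.27, all lay within the high parity range of -0.32 to 0.29. KRT8, a luminal keratin, measured 6.90, 8.29, 7.40 and 8.28 in the high parity cows, against 7.75, 8.36 and 9.19 in the low parity cows, and its difference of -0.71 had an interval of -1.63 to 0.20. With previous milk as a covariate the medians were -0.070 for luminal and -0.034 for basal markers, and KRT8 was at -0.0098. The adhesion molecule gene EPCAM differed by -0.36 (unadjusted p = 0.0352), and the contractile genes CALD1 and TAGLN by -0.53 and -0.50, while OXTR, the oxytocin receptor of milk ejection, was higher by 0.61 (unadjusted p = 0.0205). For basement membrane and integrins 1 of the 7 measured members was higher in high parity cows, with a median difference of -0.26. The mean of that centred list was -0.08, -0.12, -0.13 and -0.04 in the high parity cows, against -0.01, 0.30 and 0.08 in the low parity cows. The classes did not overlap, as in 3 of the 41 lists and for 3.85% of all single probe sets in that direction, but block 302 adjoined the high parity cows.

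Of fibroblast and connective tissue markers, 6 of the 20 measured members were higher in high parity cows, with a median difference of -0.15. POSTN, periostin, a matrix protein of remodelling tissue, measured 3.67, 3.63, 4.87 and 4.30 in the high parity cows, against 4.74, 5.78 and 5.84 in the low parity cows. Its difference was -1.34, with a high parity mean of 4.12 that lay under the 30th percentile, and the classes overlapped, since the cow of block 302 lay within the high parity range. COL1A2 differed by -0.28, so that it and COL6A2 had opposite signs. S100A4 differed by -0.37 (unadjusted p = 0.0246). Of endothelial markers, 6 of the 15 measured members were higher in high parity cows, with a median difference of -0.043, and 5 of the 15 had an unadjusted p under 0.05, each lower, where 4.21% of all probe sets were lower at that level. CLDN5, the endothelial tight junction claudin, was lower, at -0.60 (unadjusted p = 0.0112), and PECAM1, ROBO4 and EMCN at -0.39, -0.30 and -0.28, all 4 without overlap, as were 3.85% of all probe sets in that direction. Among adipocyte markers 6 of the 10 measured members were higher in high parity cows, with a median difference of 0.033, and 4 of the 10 lay above the 30th percentile. The serine protease CFD was lower, at -0.50 (unadjusted p = 0.00599), as was the lipase PNPLA2, at -0.40 (unadjusted p = 0.0464), against the direction of most members.

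Immune lists had medians on both sides of 0. Of complement components and regulators, 2 of the 18 measured members were higher in high parity cows, with a median difference of -0.18, and a median of 0.0078 with previous milk as a covariate. The mean of the centred complement list was -0.26, 0.02, -0.24 and -0.08 in the high parity cows, against -0.33, 0.12 and 0.78 in the low parity cows, and the cow of block 306 was highest. Of acute phase and inflammatory mediators, 20 of the 36 measured members were higher in high parity cows, with a median difference of 0.026. SAA3, a mammary acute phase protein, measured 7.10, 9.14, 7.43 and 7.23 in the high parity cows, against 6.75, 7.25 and 10.20 in the low parity cows, with single high cows in both classes, and TLR2, a receptor for bacterial lipopeptides, was higher by 0.55 (unadjusted p = 0.0167). NFKBIA, the inhibitor of NF-kappa-B, differed by -0.66. A neutrophil list had a median of -0.11 over 16 genes, and of 0.11 with previous milk as a covariate. Macrophage, T cell and B cell lists had medians of 0.044, 0.023 and 0.17 over 15, 15 and 6 genes, and that of the T cell list was -0.12 with previous milk as a covariate. Among interferon-stimulated genes 12 of the 25 measured members were higher in high parity cows, with a median difference of -0.041, with UBA7 higher by 0.35 and IFI30 lower, at -0.41.

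In antigen presentation 11 of the 18 measured members were higher in high parity cows, with a median difference of 0.11. BOLA-DQA5, a class II gene of the bovine major histocompatibility complex, measured 3.87, 3.79, 3.59 and 4.06 in the high parity cows, against 7.70, 7.20 and 3.85 in the low parity cows. The cows of blocks 302 and 304 stood far above the other 5, and the low parity cow of block 306 lay within the high parity range, so the difference of -2.42 rests on the cows of blocks 302 and 304. All high parity cows and the cow of block 306 lay under the filter value of 4.60. The mean of BOLA-DQA5 over all Omega cows, 4.87, passed that value only through blocks 302 and 304, so the size of its difference is uncertain. TAPBP, which loads class I molecules, was higher by 0.36 (unadjusted p = 0.0227) without overlap.

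Of immediate early genes, 12 of the 20 measured members were higher in high parity cows, with a median difference of 0.16. FOS, a transcription factor gene induced within minutes of a stimulus, measured 6.23, 9.29, 7.28 and 5.91 in the high parity cows, against 4.96, 6.24 and 5.19 in the low parity cows, a difference of 1.71 (limma unadjusted p = 0.0398), and the cow of block 304 overlapped the high parity cows. With previous milk as a covariate it was 0.37, and the list median was -0.27. SGK1, a kinase induced by glucocorticoids, differed by -0.52 (unadjusted p = 0.0262). Lists for chaperones and endoplasmic reticulum stress, antioxidant defence, retinoid binding, the proteasome, the cell cycle and apoptosis had medians of 0.061, 0.017, -0.077, -0.079, -0.068 and -0.084, and 20 of the 28 proteasome genes were lower. MCM4, a subunit of the replication helicase, was lower, at -0.41 (unadjusted p = 0.026).

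**Figure D3:**
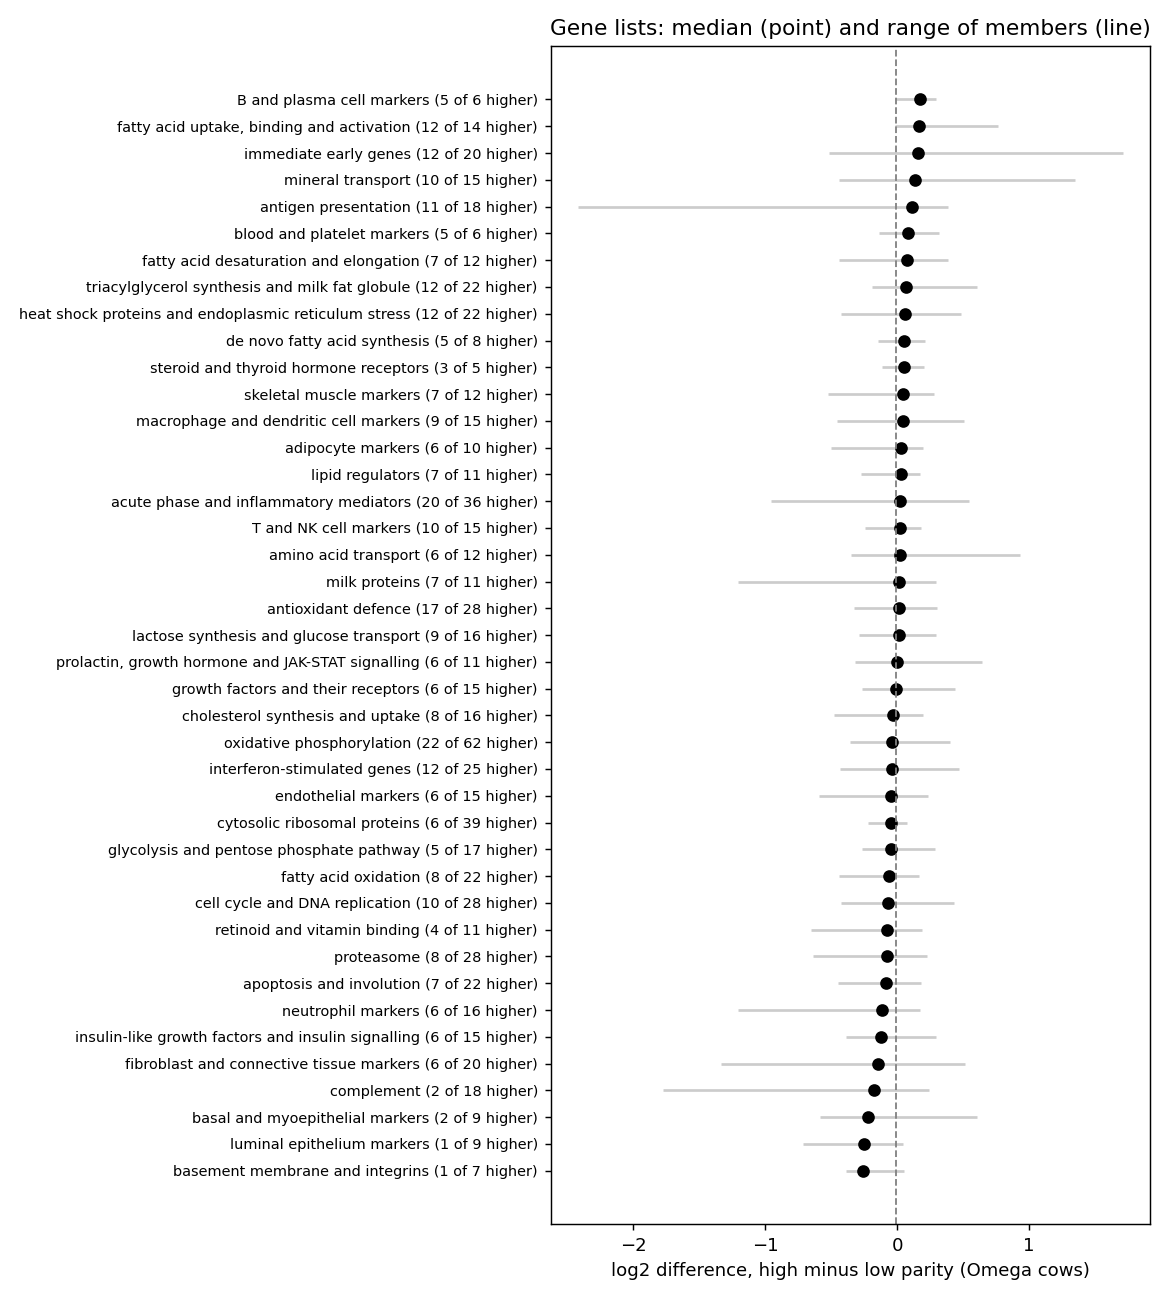
Log2 difference of high minus low parity Omega cows (horizontal axis) for 41 gene lists, sorted by median; points are list medians, lines run from the lowest to the highest member, and the dashed line is the median of all probe sets at -0.0055. Basement membrane, luminal and basal markers and complement lie lowest, and B cell markers, fatty acid uptake and immediate early genes lie highest.

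How many transcripts passed depended on the low parity cow of block 302. In a fit of the 4 high parity cows against the cows of blocks 304 and 306 alone, 58 probe sets passed an adjusted p of 0.05 in limma, of which 19 were higher and 39 lower in high parity cows, against 0 with all 7 cows. All 58 had the same sign with all 7 cows, and 6 of the 24 named genes were among them: HNRNPLL, PIM1, PSMD5, LTA4H, CTSK and PPP1CC. The fits share every cow but that of block 302, so neither count is independent of the fit with all 7 cows. Without the low parity cow of block 306, 1 probe set passed, that of BOLA-DQA5. The high parity mean of BOLA-DQA5, 3.83, lay under the filter value of 4.60.

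The genes with the smallest p in that reduced fit separated blocks 304 and 306 from the other 5 cows, and they are named here after their values were seen. BDH1, the mitochondrial ketone body enzyme 3-hydroxybutyrate dehydrogenase, measured 7.90, 7.43, 7.81 and 7.63 in the high parity cows, against 7.87, 5.96 and 5.53 in the low parity cows. ARG2, mitochondrial arginase, measured 7.27, 7.22, 6.89 and 7.07 in the high parity cows, against 7.26, 5.39 and 5.63 in the low parity cows. In both, block 302 lay within the high parity range and the other low parity cows were more than 1 log2 unit below it. On the opposite side, TXNIP, an inhibitor of glucose uptake, measured 11.06, 10.97, 10.58 and 10.42 in the high parity cows, against 10.70, 12.32 and 12.21 in the low parity cows. DDIT4, an inhibitor of mTOR signalling that stress and glucocorticoids induce, measured 9.05, 8.78, 9.09 and 8.89 in the high parity cows, against 9.04, 10.55 and 10.13 in the low parity cows. These values too put block 302 with the high parity cows. The reduced fit gave LPL a difference of 1.36 (adjusted p = 0.00713) and CISH 1.18 (adjusted p = 0.012).

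**Figure D4:**
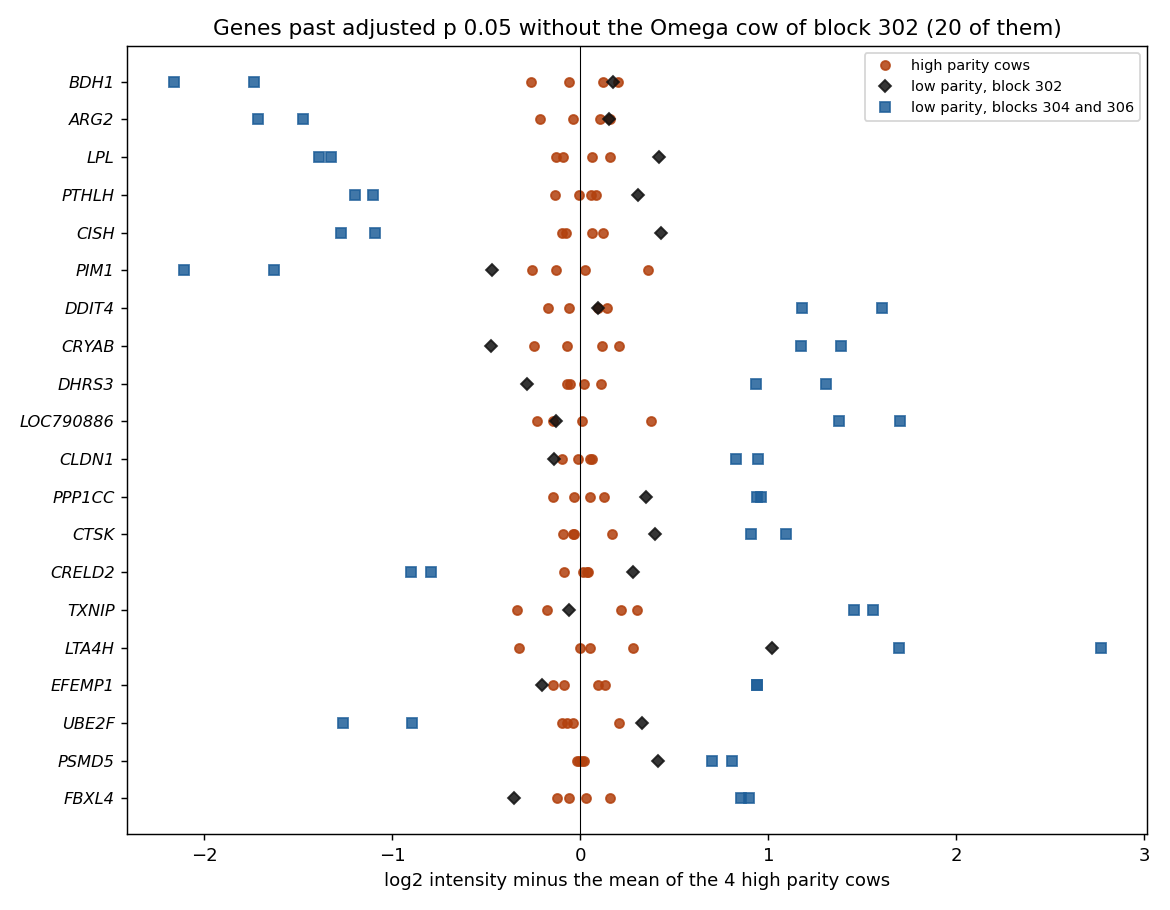
Log2 intensity minus the mean of the 4 high parity cows (horizontal axis) for 20 genes with small p among those that passed without the Omega cow of block 302. Circles are high parity cows, the diamond is the low parity cow of block 302 and squares are those of blocks 304 and 306; for BDH1, ARG2, LPL and TXNIP the diamond lies beside the circles, and for LTA4H it lies between circles and squares.

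The Control cows give the same parity comparison in other animals. In the 7 Control cows alone, 0 probe sets passed the adjusted test in limma (smallest adjusted p = 0.267) and 1839, or 17.1%, had an unadjusted p under 0.05. The Control cows of blocks 302 and 304, both of low parity, stand apart: SAA3 measured 12.80 and 13.82 in them, and LPL 11.07 and 11.10, against 6.90 for SAA3 and 12.50 for LPL in the Control cow of block 306. Of the 12 named genes higher in high parity Omega cows, 10 were also higher in high parity Control cows, and of the 12 lower, 10 were also lower, where 52.0% of all probe sets were higher. Without the Control cows of blocks 302 and 304, which leaves 1 low parity Control cow, these counts were 5 and 7, where 48.1% of all probe sets were higher. Both Control fits were added after the data were seen.

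Gene by gene, CTSK differed by -0.80 in Omega cows and -0.90 in Control cows (-0.18 without both cows), PPP1CC by -0.75 and -0.49 (-0.31), and ETS2 by -0.53 and -0.88 (-0.31). PSMD5 differed by -0.64 in Omega cows and -0.37 in Control cows, and by -0.22 without both. These 4 kept their sign in each comparison, as did COL6A2, SSH3, RNF5, DPH2 and FBXO25. Without both cows those further genes were at 0.036, 0.10, 0.033, -0.014 and -0.19. LTA4H differed by -1.83 in Omega cows and -1.75 in Control cows, but by 0.22 without both cows, so its Control value rested on them. HNRNPLL differed by 0.63 and 0.91, and by -0.02 without both. PTGR1, at 1.91 in Omega cows, differed by -0.13 in Control cows.

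**Figure D5:**
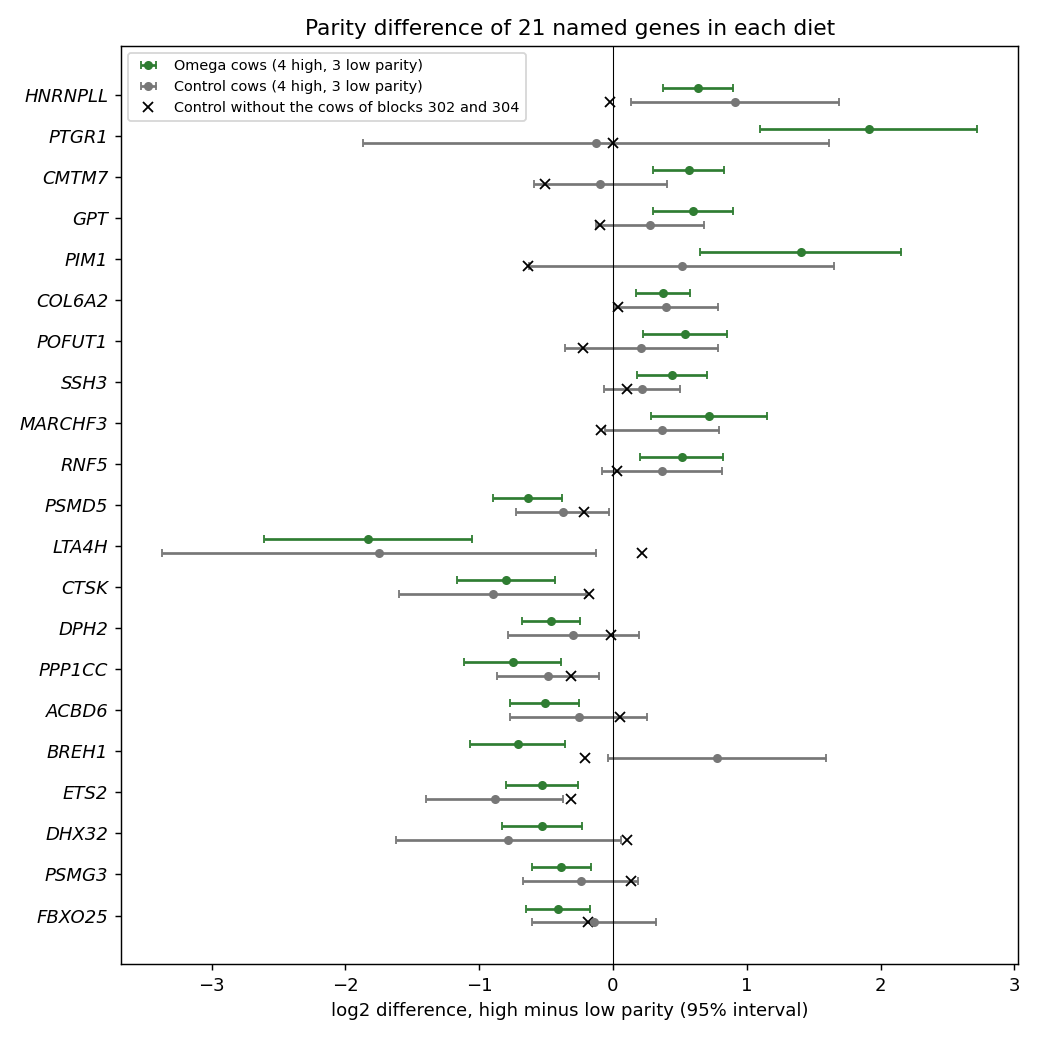
Log2 difference of high minus low parity (horizontal axis, points with 95% intervals from limma) for 21 named genes in the 7 Omega cows and in the 7 Control cows, with crosses for Control cows without those of blocks 302 and 304. For CTSK, PPP1CC, ETS2 and PSMD5 all marks lie below 0, and for BREH1 the Omega and Control points lie on opposite sides.

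Whether the parity difference depended on diet was tested with the block as a fixed effect in all 14 cows, as the Omega minus Control difference in high parity blocks minus that in low parity blocks. No probe set passed the adjusted test in limma (smallest adjusted p = 0.815) and 628, or 5.85%, had an unadjusted p under 0.05. Leaving out block 306 brought 702 past the adjusted test, 473 higher and 229 lower, a count that then rests on blocks 302 and 304 for the low parity side. Leaving out blocks 302 and 304 together brought 3 past it, and leaving out only their Control cows, in a fit without the block that was added after the data were seen, 0 (428 at an unadjusted p under 0.05). Of the 6 genes with the smallest p, NT5E, the ecto-nucleotidase that makes adenosine, had a parity difference of -0.25 in Omega cows and 1.14 in Control cows, an interaction of -1.40 (95% interval -1.86 to -0.94). PDXK, pyridoxal kinase, differed by -0.63 in Omega cows and 0.37 in Control cows, an interaction of -1.001 (95% interval -1.47 to -0.53). FBP2, a fructose bisphosphatase of muscle, had the widest interaction of the 6, at -2.40, and IER3 and BASP1 had interactions of 0.94 and 1.37. The FBP2 mean of 4.34 in high parity Omega cows lay under the filter value of 4.60, as did all low parity Control cows, at 4.11 to 4.43. The highest Omega value of FBP2 was 6.43, in the low parity cow of block 306, so the size of its interaction is uncertain. Without the Control cows of blocks 302 and 304 the 6 kept their sign, which their choice by small p favours, at -0.93 for NT5E and -2.28 for FBP2. PDXK, IER3 and BASP1 shrank further, to -0.46, 0.42 and 0.73, so much of their size rested on those cows. The desaturase SCD differed by 0.093 in Omega cows and 0.75 in Control cows (interaction -0.65, unadjusted p = 0.022), but by 0.20 in Control cows without those of blocks 302 and 304, where the interaction was -0.11, so its size rested on those cows.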

How the data were processed

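The authors deposited 1 table of log2 intensities with 10852 rows for 14 arrays, ranging from 2.26 to 14.81. RMA and GCRMA are named in the submitters' processing notes, with no word on which of them made the values. Of the rows, 112 control probe sets were left out, and 10740 were tested. RefSeq accessions were matched without versions to the gene table of assembly ARS-UCD2.0, which named 6749 probe sets for 6697 symbols and left 3991 unnamed. The brightest probe set stood for a symbol. STAT5A and IGF1R were not named in this way. Among the tested probe sets, 717 shared their values with another on every array.

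High minus low parity was fitted in the 7 Omega cows with limma 3.58.1 in R 4.3.3 (lmFit, then eBayes), and p-values were adjusted by Benjamini-Hochberg, with calls at 0.05. No block could be fitted, because each block holds 1 Omega cow and lies in 1 parity class. The interaction was fitted in 14 cows with the block as a fixed effect, as the stated design pairs the cows of a block. Lists were described by counts and medians, without a test. Traits were compared with exact permutation tests in scipy 1.17.1. Code was tested on simulated data. The cows, lists and genes described were chosen with earlier results of these data known. Named genes had a mean above the 30th percentile over the 7 arrays and were the 12 with the smallest p in each direction, up to 4 members of each list with an unadjusted p under 0.1, fixed milk and lipid genes, and the 6 with the smallest interaction p; some of these are not reported here. Alternatives covered filtering, normalization, array weights, covariates, parity coding, use of all 14 cows and leaving out each cow. The number of arrays limits the precision.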

Additional observations from a re-analysis of the deposited data

Results flagged for a closer look

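In 173 sets of values from the 4 high parity Omega cows (named genes and list means), 11 had 1 cow far from the other 3, by the gap to its neighbour as a share of the range, beyond Dixon's critical value. Chance alone gives such a result in about 1 of 20 sets. SAA3 had a share of 0.838, with 9.14 in the cow of block 305 and 7.10 to 7.43 in the other high parity cows. PPARG, the adipogenic nuclear receptor, had 0.868, with block 305 lowest at 5.75. The amino acid carrier SLC1A5 had 0.951, PIK3R1 0.898, the myeloid adaptor TYROBP 0.86 and the heme oxygenase HMOX1 0.989. The list means had 0.921 for prolactin and growth hormone signalling, 0.847 for the cell cycle, 0.925 for B and plasma cells, 0.891 for chaperones and 0.836 for the proteasome. No named gene had an adjusted interaction p under 0.05.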

How the results depend on the processing

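The count past the adjusted test stayed at 0 under all alternatives except leaving out single cows, where it ran from 0 to 58 (58 without the Omega cow of block 302, 1 without that of block 306). The count at an unadjusted p under 0.05, 776, was 1494 with array weights, which gave the cow of block 302 the lowest weight, 331 with previous milk as a covariate, 366 for label 1 against higher labels and 0 by exact permutation, and 435 to 1749 without single cows (1749 without the Omega cow of block 302, 435 without that of block 306, 489 without that of block 304, 471 without that of block 303). No paired analysis of parity was possible because each block lies in 1 parity class; all 14 cows with a random replicate block gave 560. For the interaction, 628 became 707 with no replicate block, 1150 without blocks 302 and 304 (adjusted count 3), and 303 to 2657 without single blocks (adjusted count 0 to 702): 2657 and 702 without block 306, 303 without block 304, 387 without 305, 416 without 308. The 24 named genes kept their sign in all 432 values over 18 settings. Their choice by small p from these same arrays, with classes that did not overlap, favours that result. Signs turned for other genes in 29 of 1943 values. With previous milk as a covariate these were 0.194 for LTF, -0.04388 for ACACA, -0.01188 for CD36, -0.0676 for BTN1A1, 0.163 for PPARG, -0.354 for GHR, -0.213 for IGFBP5, 0.743 for SAA3 and 0.04491 for ELOVL5. With label 1 against higher labels they were -0.005043 for CSN1S2, -0.04474 for SCD, 0.159 for COL1A2 and 0.004421 for NID1. CSN1S2 was -0.001887 with a linear parity label and -0.01109 after quantile normalization, where XDH was 0.03178, and array weights gave 0.107 for PPARG and -0.03512 for GHR. Leaving out single cows gave -0.004787 to 0.03102 for CSN1S2, -0.0272 to 0.001804 for PAEP, -0.0756 to 0.00411 for XDH, -0.04022 to 0.407 for INSIG1, -0.211 to 0.214 for PPARG, -0.092 to 0.158 for GHR, -0.368 to 0.154 for ESR1 and -0.997 to 0.726 for SAA3. Of 736 list medians, 42 moved by more than the spread between cows. The causes were not tested.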

Other observations

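Some transcripts varied between single Omega cows rather than between parity classes, and they are named here after their values were seen, from the ends of the first principal component. C4BPA, a complement regulator of the classical pathway, measured 4.01, 4.30, 4.20 and 3.79 in the high parity cows, against 4.03, 4.05 and 9.46 in the low parity cows, so that the cow of block 306 alone carried a strong signal. CHI3L1, a chitinase-like protein of inflamed tissue, measured 4.52, 6.87, 5.23 and 4.99 in the high parity cows, against 4.35, 5.57 and 8.90 in the low parity cows. ZBTB16, a transcription factor induced by glucocorticoids and progesterone, measured 4.00, 4.54, 5.84 and 5.44 in the high parity cows, against 4.71, 7.23 and 7.40 in the low parity cows, with blocks 304 and 306 above all others.

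At the other end, CA6, a secreted carbonic anhydrase of saliva and milk, measured 7.38, 6.25, 4.94 and 4.01 in the high parity cows, against 5.19, 4.48 and 3.22 in the low parity cows. The cow of block 303 was highest and that of block 306 lowest. SLC16A1, a lactate and ketone body carrier, measured 9.89, 9.51, 9.27 and 9.13 in the high parity cows, against 9.55, 8.81 and 7.63 in the low parity cows. Both classes are listed by block order 303, 305, 307 and 308, then 302, 304 and 306.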
